A study of Rattus norvegicus with 12 samples.

Results

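The 6 circadian clock genes described here are Clock (ENSRNOG00000002175), Arntl (ENSRNOG00000014448, named Bmal1 in RefSeq), Per1 (ENSRNOG00000007387), Per2 (ENSRNOG00000020254), Nr1d1 (ENSRNOG00000009329) and Dbp (ENSRNOG00000021027), taken by these rat Ensembl gene IDs from a hippocampal RNA sequencing table of 28959 rows. All 6 were found, and all passed the filter on low values that left 15253 rows for testing. The genes were chosen by their known role and with the levels of all 4 groups in these libraries already seen. Since no record says which of those levels weighed in the choice, every difference between groups in these genes is given as a description, and nothing is read from the calls.

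The tissue was the hippocampus of Sprague Dawley rats, whose stated age was 6 to 7 weeks, in 4 groups of 3 libraries. Rats of the Ctrl-Sal group were left unstressed and were given saline. The other 3 groups were all exposed to CUMS (chronic unpredictable mild stress), a series of changing mild stressors used as a rodent model of depression, for 5 weeks, and over the final 7 days were given saline (CUMS-Sal), the serotonin reuptake inhibitor fluoxetine (CUMS-Flx) or the peony monoterpene glycoside albiflorin (CUMS-Alb). Albiflorin was given at 7 mg/kg/d. Fluoxetine was given at 10 mg/kg/d by the sample labels and at 7 mg/kg/d by the series text. No unstressed group received a drug. Neither the number of rats behind a library nor the clock time at which tissue was taken is stated in the labels, so the spread between libraries may be partly technical, and a difference between groups and a difference in collection time cannot be told apart where they coincide.

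The clock is a loop of transcription that runs in nearly every mammalian cell with a period of about a day. CLOCK and BMAL1, the product of Arntl, bind E-box elements as a pair and switch on Per1, Per2, Nr1d1 and Dbp. The PER proteins return to block the pair. REV-ERB alpha, the product of Nr1d1, represses Arntl in a second loop, and DBP passes the rhythm on through D-box elements. In most rodent tissues Arntl therefore peaks at about the opposite time of day from Nr1d1 and Dbp, with the Per genes following Nr1d1 and Dbp, while Clock itself changes little. Per1 is also induced rapidly by neuronal activity and by glucocorticoids. In the hippocampus these genes are known for a rhythm that is set by the light cycle through the suprachiasmatic nucleus and hormones.

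Promoters carrying elements of this loop are shown because the genes they belong to are the ones that feed back on each other. RefSeq promoters of build GRCr8, 250 bases before to 50 after a gene start, were matched by symbol for 6 of 6 genes, in 8 windows. The rat build used by the submitters was another one, rn6. The windows were searched on both strands for the E-box CACGTG, its variant CACGTT, the D-box TTATGTAA, the REV-ERB and ROR element TAGGTCA, and the cAMP response element TGACGTCA with its core TGACG, which lies inside the full element. Matches, in capitals, were found in 4 of the 8 windows, those of Arntl, Per2 and both starts of Nr1d1. In the lines below, the strand is that of the gene and the sequence reads 5′ to 3′.

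Arntl (Bmal1), chr1:176766078-176766377, plus strand: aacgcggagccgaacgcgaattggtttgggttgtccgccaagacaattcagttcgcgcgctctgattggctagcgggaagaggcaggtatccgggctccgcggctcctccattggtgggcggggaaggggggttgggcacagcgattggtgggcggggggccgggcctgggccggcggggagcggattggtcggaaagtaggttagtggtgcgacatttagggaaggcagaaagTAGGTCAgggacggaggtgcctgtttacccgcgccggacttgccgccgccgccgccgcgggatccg

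Per2, chr9:99496944-99497243, minus strand: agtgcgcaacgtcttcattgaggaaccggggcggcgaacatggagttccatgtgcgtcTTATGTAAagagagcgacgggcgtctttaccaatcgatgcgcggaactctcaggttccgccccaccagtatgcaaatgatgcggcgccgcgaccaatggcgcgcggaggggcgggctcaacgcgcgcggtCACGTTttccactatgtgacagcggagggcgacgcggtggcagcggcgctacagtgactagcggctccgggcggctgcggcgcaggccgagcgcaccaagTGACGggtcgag

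Nr1d1, first start, chr10:84231763-84232062, minus strand: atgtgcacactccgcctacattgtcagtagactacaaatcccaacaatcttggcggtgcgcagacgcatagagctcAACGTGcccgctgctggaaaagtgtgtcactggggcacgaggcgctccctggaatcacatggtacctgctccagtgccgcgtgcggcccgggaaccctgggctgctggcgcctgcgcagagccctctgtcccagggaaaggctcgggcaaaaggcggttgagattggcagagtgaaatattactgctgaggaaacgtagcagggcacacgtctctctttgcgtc

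Nr1d1, second start, chr10:84229405-84229704, minus strand: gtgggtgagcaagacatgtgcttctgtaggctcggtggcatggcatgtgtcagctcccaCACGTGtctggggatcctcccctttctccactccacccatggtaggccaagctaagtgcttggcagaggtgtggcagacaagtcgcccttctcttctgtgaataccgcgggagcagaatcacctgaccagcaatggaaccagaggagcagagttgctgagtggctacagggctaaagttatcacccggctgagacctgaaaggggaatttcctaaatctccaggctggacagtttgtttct

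The Arntl window held the element bound by REV-ERB alpha, beginning 16 bases before the start. The Per2 window held a D-box beginning 192 bases before the start, the E-box variant beginning 62 bases before it, and the cAMP core beginning 39 bases into the transcript. The first Nr1d1 window held the E-box variant in the reverse direction, beginning 174 bases before the start, and the second a full E-box beginning 191 bases before it. The windows of Per1, Dbp and Clock held no match to these letters. Elements outside the windows, or with other letters, were not searched for, so these genes cannot be said to lack them. Among all 33469 promoters of the table, 6.42% held the E-box, 4.83% its variant, 0.893% the D-box, 2.63% the REV-ERB and ROR element, 1.83% the full cAMP response element and 21.2% the core.

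Expression values are FPKM, reads scaled to the length of the gene and the total of the library, so levels can be compared between genes. The libraries held 14735953 to 18109623 reads. Dbp was the most abundant of the 6, with a mean of 58.0 FPKM over the 12 libraries, above 90.8% of the tested rows. Nr1d1 followed at 23.4 FPKM, then Clock at 12.5, Arntl at 10.5, Per1 at 8.45 and Per2 at 7.52. The lowest read count behind any of these values was 353, for Per1, and the highest 1580, for Clock. Ctrl-Sal replicate 2 stood apart from the other libraries, at -44.7 on the first principal component against -12.2 to 15.1 for the rest, and 9 very abundant rows took 17.4 to 22.0% of reads in the Ctrl-Sal libraries, 14.7 to 15.04% in those of CUMS-Sal, 15.3 to 18.8% in CUMS-Flx and 14.6 to 15.6% in CUMS-Alb. The fit described below was repeated with libraries rescaled outside these 9 rows. The log2 differences of CUMS-Sal from Ctrl-Sal were then 0.06 for Clock, 0.05 for Arntl, 0.55 for Per1 and 0.19 for Per2. They were -0.47 for Nr1d1 and -0.39 for Dbp. Any other part of this shift in the differences below was not tested. The label of the tissue was not checked against marker genes, since the table's IDs could not be paired with symbols. In bulk tissue, fewer cells of a type and less RNA per cell cannot be told apart.

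**Figure D1:**
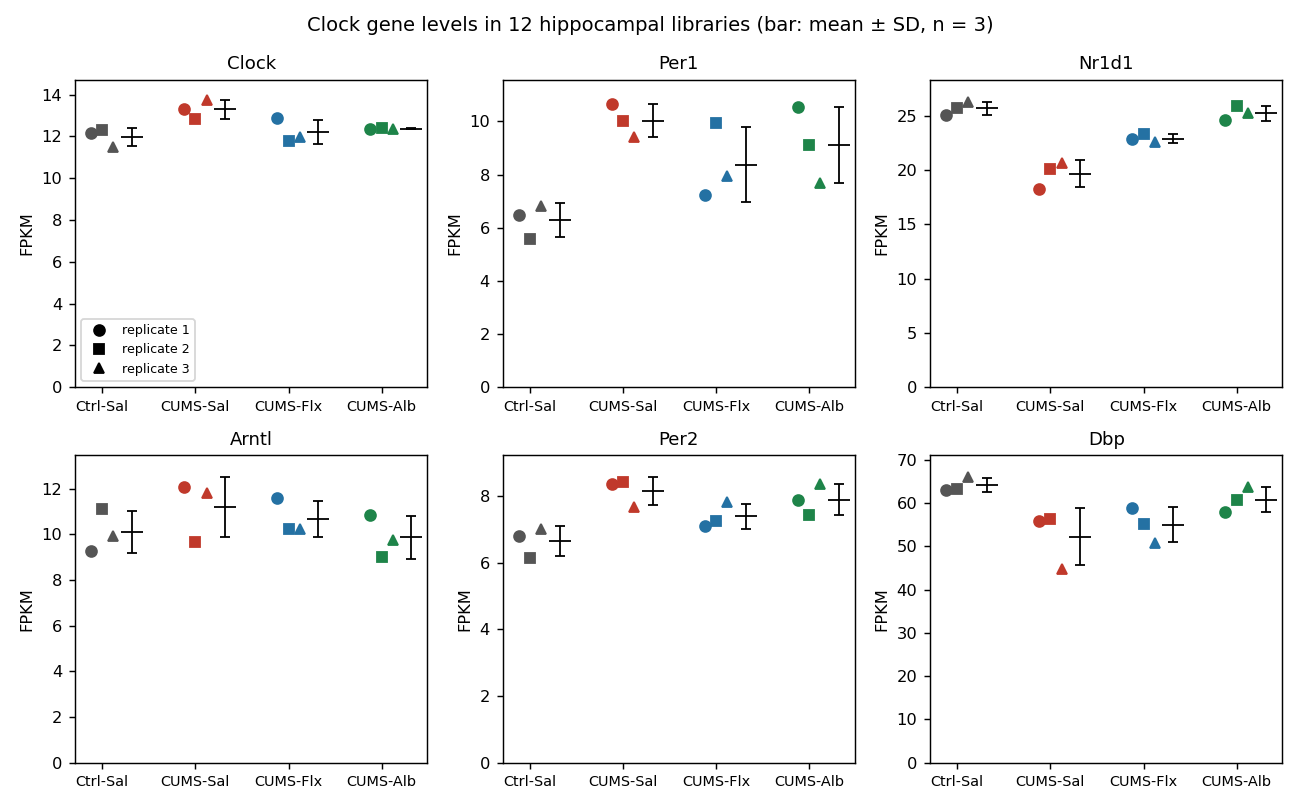
FPKM of each clock gene in the 12 libraries, by group, with the mean ± SD of 3 libraries beside the points; all axes start at 0. Nr1d1 in CUMS-Sal lies between 18.3 and 20.7 FPKM, under every library of the other 3 groups, and Per1 in Ctrl-Sal lies between 5.57 and 6.80 FPKM, under every library of the stressed groups.

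The stressed and unstressed groups given saline, CUMS-Sal and Ctrl-Sal, were compared. Per1 was higher and Nr1d1 lower in CUMS-Sal, and the 6 genes did not differ in one direction: 4 stood higher and 2 lower. Differences are given on the scale log2(FPKM + 0.5), from a limma fit over all 15253 rows in which a call required a Benjamini-Hochberg adjusted p below 0.05. By that rule 2 of the 6 were called, beside 9.19% of all rows. In 5 of the 6 the libraries of the groups did not overlap, beside 31.1% of all rows. The median size of the difference was 0.29 over the 6 genes and 0.16 over all rows.

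The activators differed least. Clock, whose product partners with BMAL1, measured 12.1, 12.3 and 11.5 FPKM in the 3 Ctrl-Sal libraries and 13.3, 12.8 and 13.8 in CUMS-Sal. Every CUMS-Sal library was above every Ctrl-Sal library, by a mean log2 difference of 0.15 (SE 0.06), and the gene was not called. All rows together had a median difference of 0.10, and with library medians set equal that of Clock was -0.01. Arntl measured 9.29, 11.1 and 9.95 FPKM in Ctrl-Sal, against 12.1, 9.66 and 11.8 in CUMS-Sal. These ranges overlapped, and the log2 difference of 0.14 (SE 0.10) turned to -0.02 with library medians set equal and to -0.01 after quantile normalization. Without Ctrl-Sal replicate 2 the difference was 0.16 for Clock and 0.20 for Arntl.

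The repressors were higher. Per1, which encodes a PER protein and answers acutely to activity and glucocorticoids, measured 6.47, 5.57 and 6.80 FPKM in Ctrl-Sal, against 10.7, 10.0 and 9.40 in CUMS-Sal. The lowest CUMS-Sal library was above the highest Ctrl-Sal library, and the log2 difference of 0.64 (SE 0.13) was larger in size than that of 96.2% of all rows. With library medians set equal it was 0.49, still called. The call ended without Ctrl-Sal replicate 2, at a log2 difference of 0.56, and without any one of CUMS-Sal replicates 1, 2 and 3, at 0.60, 0.64 and 0.68. Over all rows the 1402 calls became 369, 327, 1 and 24 in these fits. Per2, the second PER gene, measured 6.81, 6.13 and 7.01 FPKM in Ctrl-Sal, against 8.37, 8.42 and 7.67 in CUMS-Sal. These libraries did not overlap either, but the log2 difference was smaller, at 0.28 (SE 0.08), and was 0.12 with library medians set equal and 0.22 without Ctrl-Sal replicate 2. Per2 was not called.

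Nr1d1 and Dbp were lower. Nr1d1, the repressor of Arntl, measured 25.1, 25.7 and 26.3 FPKM in Ctrl-Sal, against 18.3, 20.1 and 20.7 in CUMS-Sal. All CUMS-Sal libraries were below all Ctrl-Sal libraries, with a log2 difference of -0.38 (SE 0.06), and -0.53 with library medians set equal. Ctrl-Sal replicate 2 lay between the other 2 Ctrl-Sal libraries for this gene, and without it the difference was -0.38 and still called. Without CUMS-Sal replicate 2 it was -0.39 and no longer called, in a fit in which 1 row of the whole table was. Dbp, the output factor, measured 63.0, 63.3 and 65.9 FPKM in Ctrl-Sal, against 55.7, 56.2 and 44.7 in CUMS-Sal. Here too every CUMS-Sal library was below every Ctrl-Sal library, but replicate 3 was well under the others. The log2 difference was -0.30 (SE 0.09), -0.19 without that replicate and -0.31 without Ctrl-Sal replicate 2. Dbp was not called, but was with library medians set equal, at -0.45, after quantile normalization, at -0.37, and with rescaling outside the abundant rows, at -0.39.

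**Figure D2:**
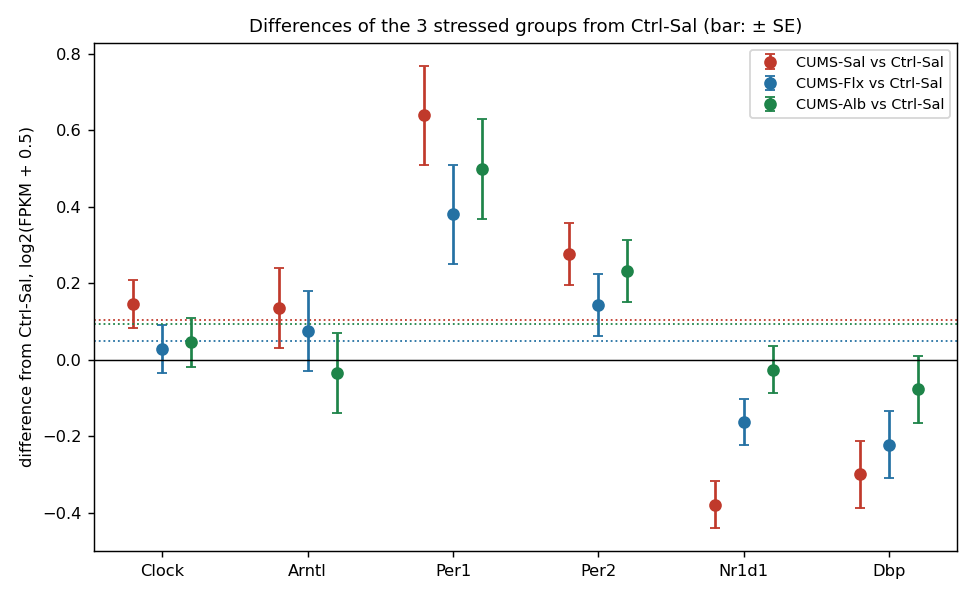
Difference of each stressed group from Ctrl-Sal in log2(FPKM + 0.5), with the SE of the fit as bars; dotted lines mark the median difference of all 15253 rows in the same comparison. Per1 is above its line in all 3 stressed groups, and Nr1d1 runs from -0.38 in CUMS-Sal through -0.16 in CUMS-Flx to -0.03 in CUMS-Alb. The 3 comparisons share the Ctrl-Sal libraries.

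Stressed rats given albiflorin were compared with stressed rats given saline to see which clock genes stood elsewhere with the drug. Nr1d1 measured 24.6, 25.9 and 25.2 FPKM in CUMS-Alb, all above the highest CUMS-Sal library and within or just under the range of Ctrl-Sal. Its log2 difference from CUMS-Sal was 0.35 (SE 0.06). Dbp measured 57.9, 60.6 and 63.7 FPKM, also above every CUMS-Sal library, with a log2 difference of 0.22 (SE 0.09). Clock measured 12.4, 12.4 and 12.3 FPKM, below every CUMS-Sal library, with a log2 difference of -0.10 (SE 0.06).

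The other genes overlapped between these groups. Per1 measured 10.5, 9.13 and 7.70 FPKM in CUMS-Alb, from the level of CUMS-Sal down to near the top of Ctrl-Sal, with a log2 difference of -0.14 (SE 0.13) from CUMS-Sal. Per2 measured 7.89, 7.42 and 8.36 FPKM, with a difference of -0.04 (SE 0.08), and Arntl 10.8, 9.01 and 9.74 FPKM, with one of -0.17 (SE 0.10). None of the 6 was called, beside 0% of all rows, where an unadjusted p below 0.05 was reached by 559 rows and limma-voom on recovered reads also made 0 calls. In 3 of the 6 the libraries did not overlap, beside 11.3% of all rows. Over the alternatives tried, several of which leave these libraries and their scale as they are, the difference ran from 0.30 to 0.39 in Nr1d1 and from 0.12 to 0.28 in Dbp.

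With fluoxetine the group means of the clock genes lay between those of CUMS-Sal and Ctrl-Sal in FPKM. With library medians set equal Clock did not, at a log2 difference of -0.05 from Ctrl-Sal. Nr1d1 measured 22.8, 23.3 and 22.6 FPKM in CUMS-Flx, above every CUMS-Sal library and below every Ctrl-Sal library, with a log2 difference of 0.22 (SE 0.06) from CUMS-Sal. Dbp measured 58.9, 55.1 and 50.9 FPKM, which overlapped CUMS-Sal, with a difference of 0.08 (SE 0.09). Per1 measured 7.21, 9.94 and 7.95 FPKM and also overlapped CUMS-Sal, with a difference of -0.26 (SE 0.13).

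The remaining genes were nearer to each other. Per2 measured 7.09, 7.25 and 7.82 FPKM in CUMS-Flx, Clock 12.9, 11.8 and 11.99, and Arntl 11.6, 10.2 and 10.2. Their log2 differences from CUMS-Sal were -0.13 (SE 0.08), -0.12 (SE 0.06) and -0.06 (SE 0.10). With library medians set equal these became -0.07, -0.05 and 0.01, and that of Dbp 0.15. None of the 6 was called, beside 0% of all rows, where an unadjusted p below 0.05 was reached by 1523 rows and limma-voom made 0 calls. In 1 of the 6, Nr1d1, the libraries did not overlap, beside 17.9% of all rows.

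The drugs were also set against each other. CUMS-Alb was above CUMS-Flx in Nr1d1 without overlap, at a log2 difference of 0.14 (SE 0.06), which made 1 of the 6 genes not overlapping beside 13.7% of all rows. The difference was 0.14 (SE 0.09) in Dbp and 0.12 (SE 0.13) in Per1, with overlap in both. With library medians set equal these 3 differences were 0.09, 0.09 and 0.07. None of the 6 was called, beside 0.00656% of all rows (1 row), where an unadjusted p below 0.05 was reached by 759 rows.

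Against Ctrl-Sal, both drug groups had higher Per1. The log2 difference was 0.38 (SE 0.13) in CUMS-Flx and 0.50 (SE 0.13) in CUMS-Alb, and in neither group did any library overlap with Ctrl-Sal. With library medians set equal these were 0.30 and 0.36, and without Ctrl-Sal replicate 2 they were 0.30 and 0.42. Per2 likewise did not overlap, at 0.14 (SE 0.08) and 0.23 (SE 0.08). These were 0.06 and 0.10 with library medians set equal, and 0.09 and 0.18 without Ctrl-Sal replicate 2.

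Nr1d1 and Dbp in CUMS-Flx both lay below every Ctrl-Sal library, at -0.16 (SE 0.06) and -0.22 (SE 0.09). In CUMS-Alb both overlapped Ctrl-Sal in FPKM, at -0.03 (SE 0.06) and -0.08 (SE 0.09). These values depended on the scaling. With library medians set equal they were -0.25 and -0.31 in CUMS-Flx and -0.16 and -0.21 in CUMS-Alb, and after quantile normalization -0.22 and -0.27 in CUMS-Flx and -0.11 and -0.14 in CUMS-Alb. For CUMS-Flx none of the 6 was called, beside 0.0524% of all rows, and 4 of the 6 did not overlap, beside 17.7%. For CUMS-Alb none was called, beside 2.5%, and 3 of the 6 did not overlap, beside 31%. The 381 rows behind that 2.5% became 0 to 2356 when 1 library was left out, and 6 without Ctrl-Sal replicate 2. In these comparisons 2666 and 4185 rows reached an unadjusted p below 0.05 by limma, and 0 and 1 of the 6 genes were called by limma-voom.

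By group mean, Nr1d1 was highest in Ctrl-Sal and then stood in the order CUMS-Alb, CUMS-Flx and CUMS-Sal. Only the first neighbours in that order overlapped. Dbp had the same order, with overlap between Ctrl-Sal and CUMS-Alb, between CUMS-Alb and CUMS-Flx and between CUMS-Flx and CUMS-Sal. Per1 and Per2 had the reverse order, CUMS-Sal, CUMS-Alb, CUMS-Flx and Ctrl-Sal, in which each pair of neighbours overlapped except CUMS-Flx and Ctrl-Sal.

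Ratios between genes of one library do not depend on how libraries are scaled. The ratio of Nr1d1 to Per1 FPKM was 3.88, 4.62 and 3.87 in Ctrl-Sal, against 1.71, 2.005 and 2.20 in CUMS-Sal. It was 3.17, 2.35 and 2.84 in CUMS-Flx and 2.33, 2.84 and 3.28 in CUMS-Alb. Both drug groups lay between the saline groups with no overlap with either, and the group means were 4.12 ± 0.431 for Ctrl-Sal, 1.97 ± 0.246 for CUMS-Sal, 2.78 ± 0.411 for CUMS-Flx and 2.82 ± 0.473 for CUMS-Alb (SD, n = 3). Nr1d1 and Per1 were the 2 genes called, in opposite directions, so the gap between the saline groups follows from those differences. The ratio of Dbp to Per1 was 10.26 ± 0.9503 in Ctrl-Sal, 5.195 ± 0.4264 in CUMS-Sal, 6.701 ± 1.335 in CUMS-Flx and 6.803 ± 1.397 in CUMS-Alb. In that ratio both drug groups overlapped CUMS-Sal and not Ctrl-Sal.

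The ratio of Nr1d1 to its target Arntl was 2.56 ± 0.208 in Ctrl-Sal, 1.78 ± 0.286 in CUMS-Sal, 2.16 ± 0.160 in CUMS-Flx and 2.58 ± 0.306 in CUMS-Alb. CUMS-Flx overlapped CUMS-Sal and not Ctrl-Sal, and CUMS-Alb overlapped Ctrl-Sal and not CUMS-Sal, but the 2 drug groups overlapped each other. The ratio of Per1 to Per2 was 0.943 ± 0.0313 in Ctrl-Sal and 1.23 ± 0.0412 in CUMS-Sal, so the RNA difference between these groups was greater for Per1. CUMS-Flx, at 1.135 ± 0.2046, overlapped CUMS-Sal and not Ctrl-Sal, and CUMS-Alb, at 1.162 ± 0.2153, overlapped both. The ratio of Arntl to Clock, at 0.845 ± 0.0716 in Ctrl-Sal and 0.840 ± 0.0792 in CUMS-Sal, overlapped.

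**Figure D3:**
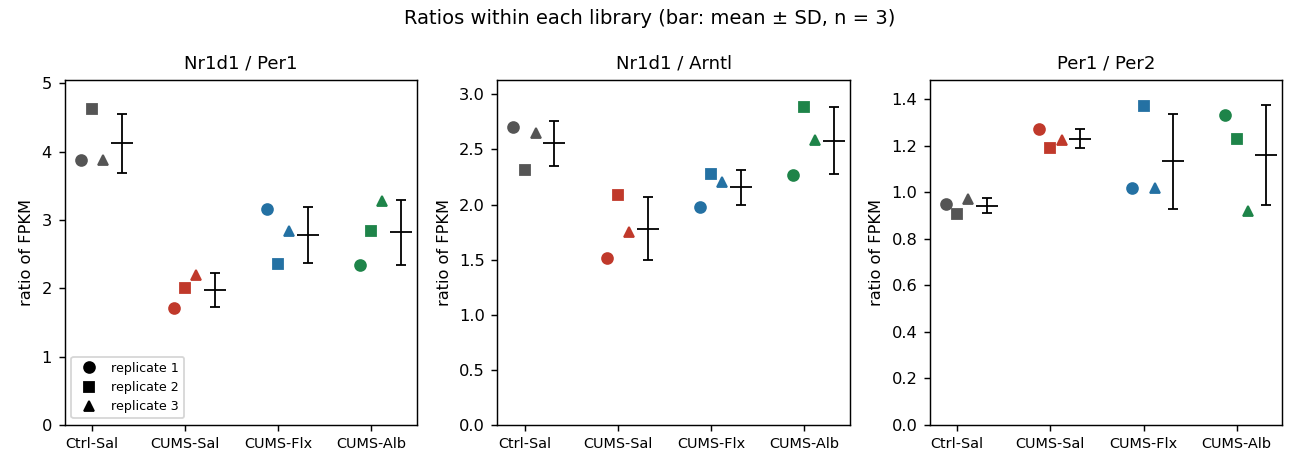
Ratios of FPKM between clock genes within each library, by group, with the mean ± SD of 3 libraries; all axes start at 0. The ratio of Nr1d1 to Per1 lies between 3.87 and 4.62 in Ctrl-Sal and between 1.71 and 2.20 in CUMS-Sal, with both drug groups between these ranges.

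Whether libraries differ as they would by time of tissue collection was examined within groups, where stress and drug are the same. By the known order of the daily cycle, libraries taken at different times would differ in the strongly cycling genes, with Arntl placed opposite to Nr1d1 and Dbp. The pooled SD within groups was 0.05 log2 units for Nr1d1, above that of 3.2% of all tested rows, and reads of this number alone would give 0.05 by counting. It was 0.11 for Dbp (percentile 34.8), 0.08 for Per2 (percentile 14.7), 0.13 for Arntl (percentile 46.0) and 0.05 for Clock (percentile 1.59), against a median of 0.14 over all rows. The low percentiles moved with the setting: without Ctrl-Sal replicate 2 that of Nr1d1 was 7.37 and that of Clock 3.27, and with library medians set equal they were 7.95 and 13.7, with Per2 at 4.07.

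Per1 was the one of the 6 with a spread above that median, at 0.18 log2 units (percentile 65.4) and 2.80 times its counting error. Arntl was above it too without Ctrl-Sal replicate 2 (percentile 53.4) and with library medians set equal (percentile 56.8). Per1 deviated from its group mean by 0.25 in CUMS-Flx replicate 2, by 0.21 in CUMS-Alb replicate 1 and by -0.22 in CUMS-Alb replicate 3. In those libraries Nr1d1 deviated by 0.03, -0.04 and -0.00077 and Dbp by 0.01, -0.07 and 0.07. In 2 of the 12 libraries Per1, Per2, Nr1d1 and Dbp were all above their group means with Arntl below its own. These were Ctrl-Sal replicate 3, with Arntl at -0.02 and the others at 0.03 to 0.11, and CUMS-Sal replicate 2, with Arntl at -0.19 and the others at 0.0018 to 0.11. In no library were the 4 genes all below with Arntl above, but Ctrl-Sal replicate 2 missed this only by Nr1d1 at 0.0019, with Per1 at -0.15, Per2 at -0.11, Dbp at -0.02 and Arntl at 0.13. Since the Per genes follow Nr1d1 and Dbp in the cycle, libraries apart in time need not show either pattern. No count expected without a time difference was computed, so these counts are descriptions. Among the 9272 rows that averaged 5 FPKM or more, which leaves out the rows of highest counting error, Nr1d1 stood at percentile 5.19 and Per1 at percentile 81.4.

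**Figure D4:**
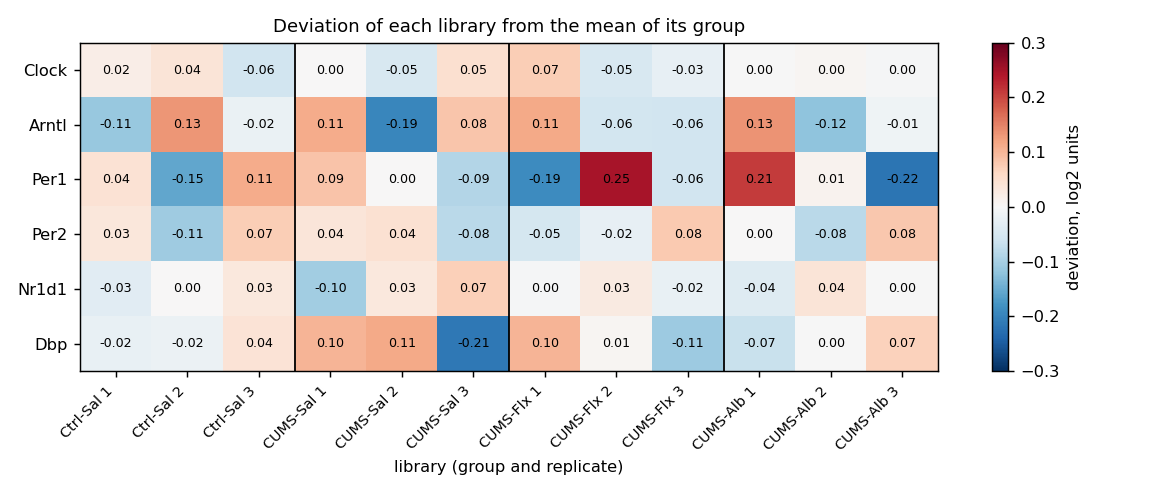
Deviation of each library from the mean of its group in log2(FPKM + 0.5), for the 6 clock genes in rows and the 12 libraries in columns, with the value printed in each cell. Nr1d1 stays within -0.10 and 0.07, Per1 runs from -0.22 to 0.25, and Ctrl-Sal replicate 3 and CUMS-Sal replicate 2 are the 2 libraries with Arntl below 0 and the other cycling genes above it.

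Correlations over the libraries were computed for the 15 pairs of genes, on all 12 libraries and on deviations from the group means. The first form contains the group differences known when the genes were chosen, so its values are descriptions. In it Nr1d1 and Dbp had r = 0.656 and rho = 0.811, and without the 2 libraries farthest from the median of Nr1d1 r was 0.929. Per1 and Per2 had r = 0.767 and rho = 0.804, and r = 0.50 without the 2 libraries farthest in Per1.

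Within groups these values were lower. Nr1d1 and Dbp had r = -0.319 (exact permutation p = 0.696 over the 1296 orders within groups) and lay on opposite sides of their group means in 6 of 12 libraries. Per1 and Per2 had r = 0.159 (exact permutation p = 0.669). Arntl lay opposite to Nr1d1 in 7 of 12 libraries, at r = -0.327 (exact permutation p = 0.553), and opposite to Dbp in 7 of 12, at r = -0.179 (exact permutation p = 0.772). The signs of these pairs depended on the scaling. With library medians set equal, r within groups was 0.125 for Arntl and Nr1d1 and 0.11 for Arntl and Dbp. It was then 0.125 for Nr1d1 and Dbp and -0.267 for Per1 and Per2. Without that rescaling the pairs farthest from 0 were Clock with Per2, at r = -0.631 (exact permutation p = 0.0486, adjusted over the 15 pairs 0.55) and opposite in 9 of 12 libraries, and Clock with Per1, at r = -0.589 (exact permutation p = 0.0733, adjusted 0.55) and opposite in 7 of 12. With group differences included these were 0.383 and 0.403, and turned to -0.319 and -0.380 with library medians set equal. Of the 15 pairs 6 changed sign between the forms, and the lowest adjusted p within groups was 0.55. With 3 libraries a group, a moderate relation could be missed.

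**Figure D5:**
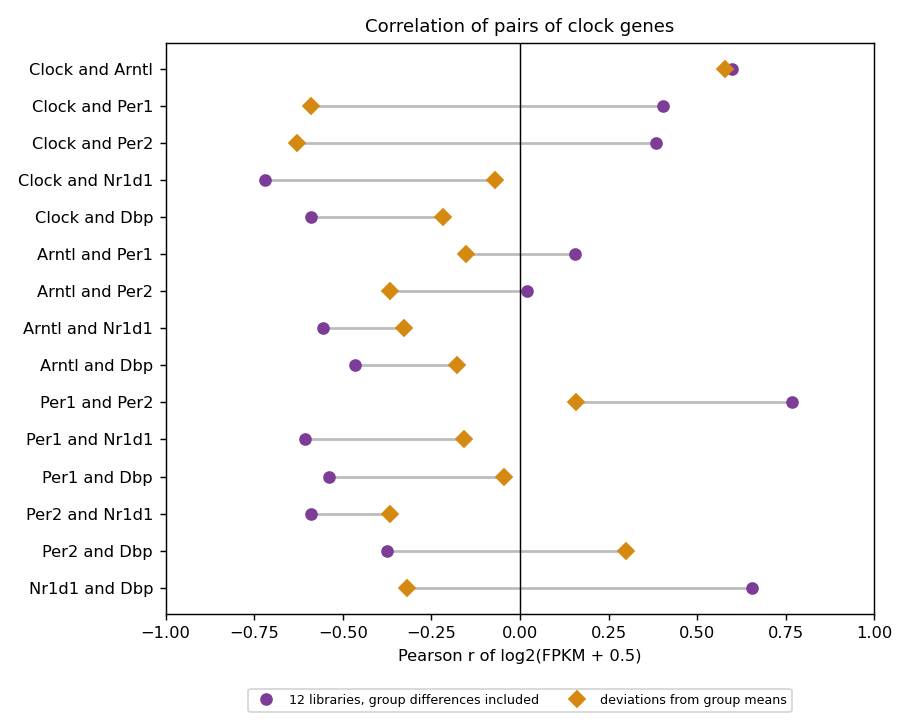
Pearson r of log2(FPKM + 0.5) for the 15 pairs of clock genes, over 12 libraries with group differences included (circles) and on deviations from the group means (diamonds). The pair of Nr1d1 and Dbp moves from 0.656 to -0.319 and that of Per1 and Per2 from 0.767 to 0.159, while Clock and Arntl stay at 0.598 and 0.577.

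Between groups, the differences after stress can be set beside that order. Nr1d1 and Dbp were lower. Per1 and Per2, which follow Nr1d1 and Dbp in the daily cycle, were higher. Arntl, which peaks opposite to Nr1d1 and Dbp, overlapped between the groups. Collection time is not stated for any library, so its part in the group differences was not tested.

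The genes whose pattern over the 12 libraries was most like each clock gene were sought among the other 15252 tested rows. The closest row reached r = 0.952 for Per1 and 0.960 for Per2, and 1171 and 1424 rows exceeded 0.8 with them. For Nr1d1 the closest row had r = 0.839 and 3 rows exceeded 0.8, and for Dbp these were 0.860 and 13. Only positive r in FPKM as deposited was counted, and by it many rows were like the Per genes and few like Nr1d1 and Dbp. On that scale the stress calls were 1228 higher and 174 lower rows, against 332 and 622 with library medians set equal. Likeness with library medians set equal was not computed. Dbp ranked 119 in likeness to Nr1d1 and Nr1d1 ranked 137 in likeness to Dbp. Few rows were like the activators as well: the closest row to Clock had r = 0.955 with 40 over 0.8, and that to Arntl 0.846 with 12. The libraries share their group structure and depth, so these values are descriptions.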

How the data were processed

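RNA was sequenced from rat hippocampus in 12 libraries, grouped 3 to a group by title. TopHat2 and build rn6 are named per the submitters' processing notes. No counter or annotation release is named there. The authors deposited FPKM values, without a unit in the header; FPKM was read from the values, since each row steps by a whole read. Totals, lengths and reads were recovered for 22737 of 22737 rows above 0, as whole numbers within 0.001 of a read (or the rounding of the deposited digits). Intervals and counting errors cover counting only.

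Values were tested as log2(FPKM + 0.5), over rows averaging 0.5 FPKM or more, by limma 3.58.1 (trend, robust) in R 4.3.3 on all 12 libraries, with Benjamini-Hochberg adjustment over 15253 rows. The script was tested on simulated data. Correlations used 100000 two-sided permutations, or all orders within groups. Python 3.11.15, numpy 2.4.6, pandas 2.3.3 and matplotlib 3.10.9 were used.

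The clock genes, the lists and the tests were chosen with earlier results of these data known. The named genes are the 6 clock genes. Their symbols came with the choice of IDs: 0 table IDs matched RefSeq (GRCr8) symbols, so 39 other clock genes, the immediate early genes and the marker lists could not be matched and are not analysed here. Replicates were not copies of one another: differences exceeded counting noise in every pair.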

Additional observations from a re-analysis of the deposited data

How the results depend on the processing

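After stress 2 clock genes were called. The count was 4 with a minimum mean of 5 FPKM and 4 by limma-voom on recovered reads, where Per2 and Dbp were added. It was 0 with only the 2 groups compared in the fit, where 0 of all rows were called. Leaving out 1 library gave 0 to 3, and leaving out Ctrl-Sal replicate 2 and CUMS-Sal replicate 2 together, chosen after seeing the data, gave 0. In CUMS-Alb against Ctrl-Sal the count was 0 and became 1, Per1, with a minimum mean of 5 FPKM, by limma-voom, and when a library was left out (0 to 1). The other counts did not change. Over all rows the 1402 stress calls became 1 to 2637 when 1 library was left out, 251 with no filter on low values, 529 after quantile normalization, 711 with rescaling outside the abundant rows and 740 without trend and robust settings. The stress calls split into 1228 higher and 174 lower rows, and into 332 and 622 with library medians set equal. Of the differences of single genes, 611 values moved by less than 1 SD between replicates and 37 by more, and no called difference changed sign. The 611 include settings that cannot move a difference: the filters, the fit without trend and robust settings, the block and the fit of 2 groups. After stress Clock, Per2 and Nr1d1 moved by more with library medians set equal, after quantile normalization and with rescaling outside the abundant rows. In CUMS-Alb against Ctrl-Sal the 381 calls over all rows became 0 to 2356 when 1 library was left out, 3 with no filter on low values, 996 with a minimum mean of 5 FPKM, 157 with library medians set equal, 98 after quantile normalization, 20 with rescaling outside the abundant rows, 1339 by limma-voom, 0 without trend and robust settings, 0 with the replicate number as a block and 1 with only the 2 groups in the fit. Of the 15 Pearson correlations with group differences included, which are descriptions, 0 had an adjusted permutation p below 0.05, and 3 with library medians set equal. By Spearman rho without rescaling, also with group differences included, Per1 with Per2 and Nr1d1 with Dbp were below 0.05. These permutations crossed the groups, so they hold the group differences known when the genes were chosen, and nothing is read from them. Within groups the exact permutation p of Pearson r for these pairs was 0.669 and 0.696. Clock genes spread above the median row were 1, and 2 without Ctrl-Sal replicate 2, 2 with library medians set equal and 3 among rows of at least 5 FPKM, a comparison chosen after seeing the data.

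The replicate numbers do not pair the libraries. Deviations of same-numbered libraries correlated at -0.159 to 0.127, above 0.1 in 1 of 18 pairs, and a library correlated best with its own number in 11 of 36 choices among the libraries of another group. With the replicate number as a block 2 clock genes were called after stress and 565 rows in all. The SD within groups was 1.11 times that of counting for Nr1d1 and 2.80 times for Per1, so depth limits the precision of Nr1d1 more than that of Per1.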
